A study of Chlamydomonas reinhardtii with 42 samples.

Results

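The heat-shock genes described here are 5 of the 17741 genes in the count table of the acetate and light experiment in Chlamydomonas reinhardtii, a unicellular green alga. They are HSF1 (Cre07.g354500), HSP70A (Cre08.g372100), HSP90A (Cre09.g386750), HSP22A (Cre07.g318800) and HSP22C (Cre03.g145787). They were chosen by name, with earlier results of these data known. All 5 were among the 13886 genes with a CPM (the count of a gene scaled to library size) of 1 or more in 9 or more libraries and were tested. The list of transcription factors used in the study places Cre07.g354500 in the HSF family. For the other 4 identifiers the symbols are those by which the genes were chosen, and no table used here pairs them with a name. No heat treatment belongs to the experiment, so the labels could not be checked against a heat response.

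Heat-shock factors are transcription factors that bind heat-shock elements in promoters and raise the transcription of chaperone genes when proteins misfold. HSP70 and HSP90 are ATP-dependent chaperones that fold new and damaged proteins and hold client proteins in an active form, and HSP70A and HSP90A are the cytosolic forms in Chlamydomonas. Small heat-shock proteins such as those of the HSP22 group bind unfolding proteins without ATP and keep them from aggregating, and they are known for very low expression in unstressed cells. In Chlamydomonas HSF1 is known as the main regulator of the heat stress response, and HSP70A is known to respond to light as well as to heat.

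The cells were of CC-125, a wild-type strain grown before in acetate-containing TAP medium, and had spent 24 h in the mineral medium HSM in low light (LL), a photon flux of 5 µmol m-2 s-1. At time 0, part of the culture received 20 mM sodium acetate, a carbon source used beside photosynthesis, and the rest stayed in HSM. LL cultures of both media were sampled at 15, 240 and 1440 min, and parts of them were moved to high light (HL), a photon flux of 300 µmol m-2 s-1, at 240 min (day 1) or at 1440 min (day 2) and sampled after 15 and 60 min. Each of the 14 conditions had 3 libraries, which the study calls biological replicates. The labels give 15 µmol photons for the growth in TAP, where the methods on RNA sampling give 5.

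Library totals were 19232757 to 34098899 counts (median 25197659), and the 5 genes together took 0.0175% to 1.06% of a library's counts. The 100 most abundant genes took 36.7% to 76.3%, and the TMM scaling factors ranged from 0.454 to 1.57. As a check of the labels, the HL marker LHCSR3.1 was at 4.97 to 121 CPM in the 6 HSM libraries sampled in LL at 240 and 1440 min and at 1286 CPM or more in the 12 HSM libraries of HL.

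All 5 genes reached their highest level in the same condition, acetate after 60 min of HL on day 2. There HSF1 was at 46.9, 37.9 and 52.8 CPM in replicates 1, 2 and 3. HSP70A was at 4923, 3779 and 5658 CPM, and HSP90A at 4753, 3504 and 5352 CPM. HSP22A was at 180.1, 8.399 and 847 CPM, and HSP22C at 282, 152 and 423 CPM. In each of the 5 genes replicate 2 was the lowest and replicate 3 the highest of the 3 libraries. For HSP70A, HSP90A, HSP22A and HSP22C no library of any other condition reached this range. The other 39 libraries lay at 99.0 to 1957 CPM for HSP70A, 98.1 to 1443 CPM for HSP90A, 1.42 to 7.90 CPM for HSP22A and 1.53 to 18.5 CPM for HSP22C, and at 10.101 to 38.1 CPM for HSF1, where the highest overlapped replicate 2.

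**Figure D1:**
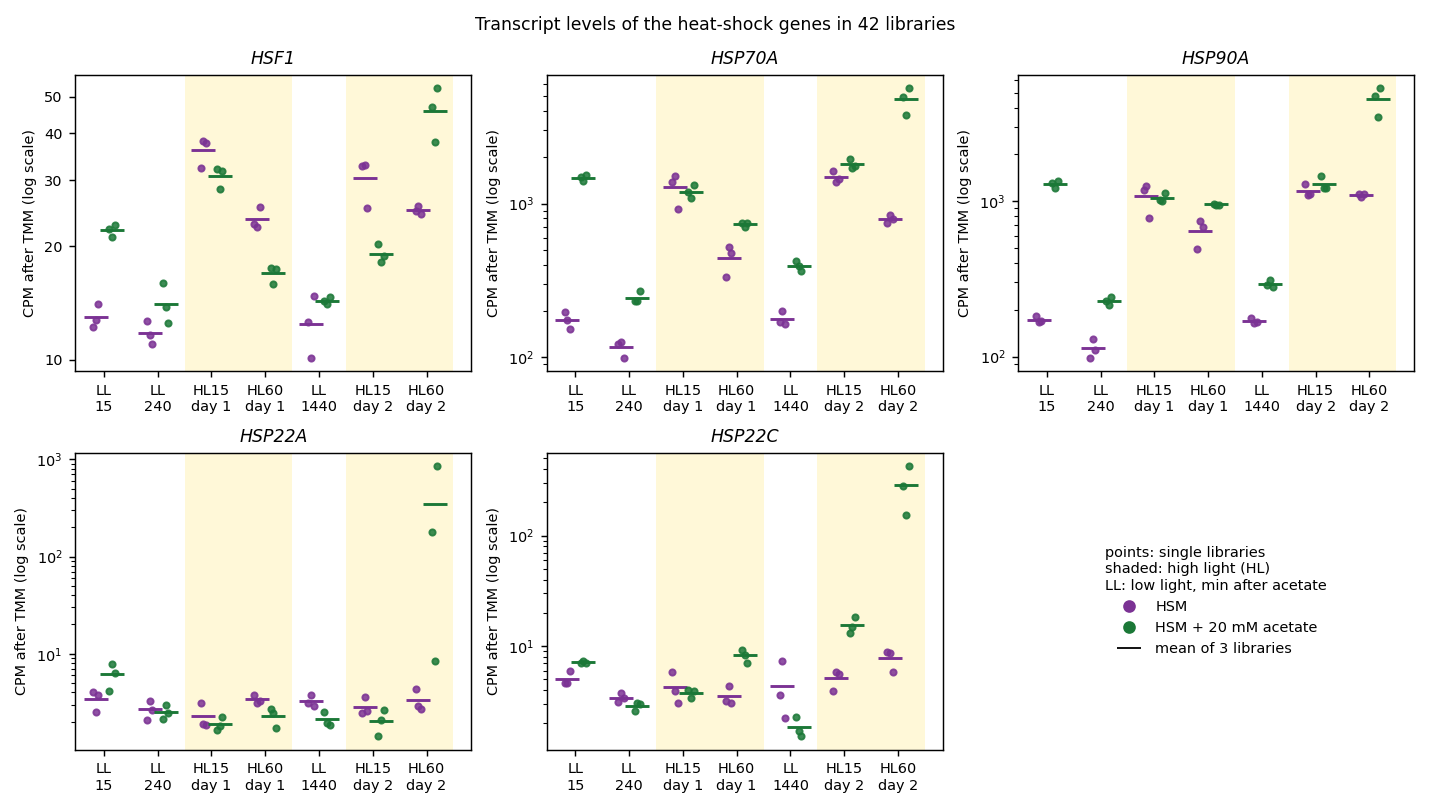
Level of each gene in CPM after TMM scaling (log axis) in every library, by sampling time, with HSM in purple, acetate in green, horizontal marks for the mean of 3 libraries and shading for HL. HSP70A and HSP90A rose in every HL sampling, whereas HSP22A stayed between 1.42 and 7.90 CPM in all libraries other than those of acetate after 60 min of HL on day 2.

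The span of the levels differed between the genes. Between the highest and lowest condition mean, HSF1 spanned 3.90-fold, from 11.8 ± 0.845 CPM (SD, n = 3) in HSM at 240 min of LL to 45.9 ± 7.48 CPM. HSP70A spanned 41.4-fold (116 ± 14.7 to 4786 ± 947 CPM) and HSP90A 40.05-fold (113 ± 16.3 to 4536 ± 943 CPM), with the same lowest condition. HSP22A and HSP22C had their lowest means in acetate, at 1.89 ± 0.296 CPM after 15 min of HL on day 1 and at 1.85 ± 0.401 CPM at 1440 min of LL. Their spans were 183-fold and 155-fold. In the order of the 14 means, neighbours overlapped in their library ranges in 9 of 13 steps for HSF1, 6 for HSP70A, 6 for HSP90A, 11 for HSP22A and 8 for HSP22C. The order of HSP22A below its highest condition was therefore mostly within the spread of replicates.

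The first question was how the genes responded when cells went from LL to HL. HSP70A and HSP90A were higher in HL in 8 of 8 comparisons, HSF1 in 7, HSP22C in 4 and HSP22A in 1. The 15 and 60 min comparisons of a medium and day share their LL libraries, so the 8 are not independent. In HSM on day 1 HSP70A went from 122, 126 and 99.0 CPM at 240 min of LL to 1393, 1510.3 and 929 CPM after 15 min and 335, 522 and 480 CPM after 60 min of HL. HSP90A went from 98.1, 131 and 111 CPM to 1183, 1260.4 and 776 CPM and then to 493, 744 and 687 CPM. HSF1 went from 12.7, 11.6 and 11.0 CPM to 32.3, 38.1 and 37.7 CPM and then to 22.9, 22.5 and 25.5 CPM. In all 3 genes every HL library lay above every LL library, and in these whole-culture samples fewer cells with a transcript cannot be told apart from less of it per cell.

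After 15 min of HL in HSM on day 1, the log2 fold change was 1.62 for HSF1 (SE 0.13, adjusted p = 1.07e-13), 3.47 for HSP70A (SE 0.18, adjusted p = 4.39e-18) and 3.24 for HSP90A (SE 0.17, adjusted p = 4.45e-18) by the quasi-likelihood test of edgeR, adjusted after Benjamini and Hochberg over all genes tested, which gave every adjusted p here unless another tool is named. These 3 of the 5 genes were higher, as were 34.7% of all genes tested. After 60 min the same 3 were higher (37% of all genes), by 1.01 for HSF1, 1.95 for HSP70A and 2.5 for HSP90A. HSP22A (−0.25 and 0.35) and HSP22C (0.31 and 0.05) did not pass the threshold of 0.05 at 15 or 60 min.

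With acetate on day 1, HSP70A rose from 231, 233 and 269 CPM to 1186, 1087 and 1315 CPM after 15 min and was at 752, 702 and 748 CPM after 60 min. HSP90A rose from 227, 215 and 241 CPM to 1022, 1009.8 and 1123 CPM and was at 963, 950.1 and 951 CPM. HSF1 was at 15.9, 13.8 and 12.5 CPM in LL, at 32.2, 28.5 and 31.8 CPM after 15 min and at 17.5, 15.9 and 17.4 CPM after 60 min. The libraries of HSF1 after 60 min overlapped those of LL, and its log2 fold change of 0.27 (SE 0.12, adjusted p = 0.0628 by edgeR, and 0.0244 to 0.266 under the alternatives) did not pass the threshold. It passed without LL replicate 1 (0.37, adjusted p = 0.0244 by edgeR), when scaled by library size alone (0.53, adjusted p = 0.0429 by edgeR) and by limma-voom (0.27, adjusted p = 0.0471).

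The small heat-shock gene HSP22C was at 2.57, 3.03 and 2.96 CPM in LL and at 9.25, 8.35 and 7.097 CPM after 60 min with acetate on day 1, without overlap. At 15 min 3 of the 5 genes were higher (30.9% of all genes), namely HSF1 by 1.13, HSP70A by 2.29 and HSP90A by 2.21. At 60 min 3 were higher (27.3%), namely HSP70A by 1.59, HSP90A by 2.07 and HSP22C by 1.52 (SE 0.28, adjusted p = 2.42e-05 by edgeR).

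On day 2 in HSM, 3 of the 5 genes were higher after 15 min (33% of all genes), HSF1 by 1.28, HSP70A by 3.07 and HSP90A by 2.78, and HSP22C (0.28) was called without LL replicate 2 (0.76, adjusted p = 0.0367 by edgeR). After 60 min 4 were higher (36.8%), HSF1 by 1.00, HSP70A by 2.17, HSP90A by 2.70 and HSP22C by 0.88 (SE 0.29, adjusted p = 0.00854 by edgeR). HSP22C was then at 8.75, 8.61 and 5.88 CPM against 3.63, 7.31 and 2.23 CPM in LL, and these ranges overlapped. Its call was lost without LL replicate 1 (0.76, adjusted p = 0.0527) or LL replicate 3 (0.48, adjusted p = 0.174), and in a fit of only the 6 libraries (0.81, adjusted p = 0.0671, all by edgeR).

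On day 2 with acetate, HSP22C rose in steps, from 2.296, 1.71 and 1.53 CPM in LL to 13.23, 14.9 and 18.5 CPM after 15 min and to the 152 to 423 CPM given above after 60 min. The 3 ranges were separate. HSP22A was at 2.54, 1.95 and 1.85 CPM in LL and at 1.42, 2.07 and 2.62 CPM after 15 min, with overlapping ranges, before its rise at 60 min. Its lowest library at 60 min (8.399 CPM, 204 counts) lay above the highest of the other 39 libraries (7.90 CPM, 142 counts) by a small margin.

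HSP70A rose from 422, 394 and 363 CPM in LL to 1957, 1698 and 1752 CPM after 15 min, and HSP90A from 290.03, 313 and 279 CPM to 1443, 1215 and 1219 CPM. HSF1 was at 14.295, 14.1 and 14.7 CPM in LL and at 20.3, 18.2 and 18.8 CPM after 15 min. After 15 min 4 of the 5 genes were higher (32.4% of all genes), HSF1 by 0.41, HSP70A by 2.2, HSP90A by 2.14 and HSP22C by 3.06, although scaling by library size alone put HSF1 at −0.039, where the median of all genes was −0.53.

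After 60 min with acetate on day 2 all 5 were higher, against 39.9% of all genes. The log2 fold change was 1.68 for HSF1 (SE 0.12), 3.61 for HSP70A (SE 0.18), 3.95 for HSP90A (SE 0.18), 7.34 for HSP22A (SE 0.75, adjusted p = 6.14e-11) and 7.26 for HSP22C (SE 0.33, adjusted p = 5.04e-20 by edgeR). The HSP22A value was 5.47 without HL replicate 3 and 7.91 without HL replicate 2. The 95% interval of the HSP22A value, 5.87 to 8.81, was wider than that of HSP22C, 6.61 to 7.92. The HSP22A interval rests on a spread estimated over all 14 conditions, not on the libraries compared alone. It does not cover the 5.47 without HL replicate 3, or the lowest value among the other alternatives, 5.68.

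**Figure D2:**
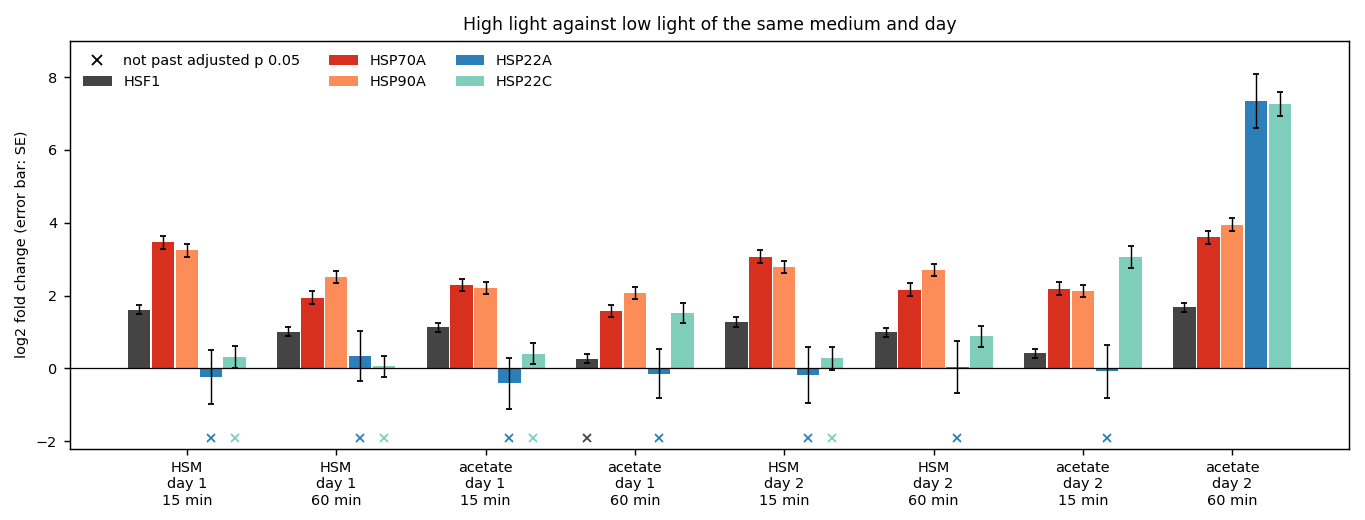
Log2 fold change of HL against LL for the 5 genes in the 8 comparisons, with bars for the fitted value, error bars for its SE and crosses at the foot for values not past an adjusted p of 0.05. HSP22A has a called rise at 60 min with acetate on day 2 alone (7.34), and HSP22C rises with acetate from 1.52 after 60 min on day 1 to 3.06 and 7.26 on day 2.

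Averaged over the 8 comparisons, all 5 genes were higher in HL, as were 40.5% of all genes. The average was 1.05 for HSF1, 2.54 for HSP70A, 2.70 for HSP90A, 0.84 for HSP22A (SE 0.31, adjusted p = 0.014 by edgeR) and 1.72 for HSP22C. The HSP22A average was not past the threshold by limma-voom (0.62, adjusted p = 0.235), and only 1 of its 8 comparisons was called.

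The second question was whether acetate changed the genes at equal time and light. The earliest difference, 15 min after sodium acetate was added in LL, was a higher level of the cytosolic chaperones. The study describes no mock or sodium addition to the HSM cultures. In this design a response to acetate cannot be told apart from one to sodium or to the addition itself. HSP70A was at 196, 175 and 152 CPM in HSM and at 1482.5, 1393 and 1530.5 CPM with acetate. HSP90A was at 182, 168 and 169 CPM and at 1309, 1224 and 1343 CPM, and HSF1 at 12.21, 12.7 and 14.1 CPM and at 22.2, 21.2 and 22.7 CPM. No ranges overlapped, and the acetate levels of both chaperones lay above those of HSM cells after 60 min of HL on either day. The log2 fold change was 3.07 for HSP70A (SE 0.18, adjusted p = 2.18e-17), 2.90 for HSP90A (SE 0.17, adjusted p = 1.99e-17) and 0.76 for HSF1 (SE 0.13, adjusted p = 1.66e-06 by edgeR).

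These 3 of the 5 genes were higher at 15 min of LL, as were 34.7% of all genes. HSP22A, at 4.03, 2.54 and 3.76 CPM in HSM and 4.18, 7.90 and 6.31 CPM with acetate, was not called (0.85, adjusted p = 0.262), and neither was HSP22C (0.50, adjusted p = 0.115 by edgeR). The libraries of both did not overlap, and in a fit of only these 6 libraries both were called (0.89 for HSP22A, adjusted p = 0.00354, and 0.55 for HSP22C, adjusted p = 0.00403 by edgeR). The standard errors of HSP22A in the model of all 42 libraries, 0.66 to 0.77 for each pair of conditions, include the spread of its 3 libraries of acetate after 60 min of HL on day 2.

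At 240 min of LL, 2 of the 5 genes were higher with acetate (32.9% of all genes), HSP70A by 1.08 and HSP90A by 1.01. HSF1 (0.26) was called there without HSM replicate 1 (0.32, adjusted p = 0.0499) or acetate replicate 3 (0.34, adjusted p = 0.0317 by edgeR). It was also called with the culture number as a block (0.27, adjusted p = 0.0426), without the filter (0.30, adjusted p = 0.0446) and when scaled by library size alone (0.69, adjusted p = 0.00617 by edgeR), and the adjusted p over all alternatives was 0.00617 to 0.317. At 1440 min the same 2 were higher (31.1%), HSP70A by 1.15 and HSP90A by 0.80, and HSF1 (0.20) was called without HSM replicate 3 (0.38, adjusted p = 0.0156 by edgeR) or when scaled by library size alone (1.15, where the median of all genes was 0.99). HSP22C was then lower (32.8% of all genes were lower), by −1.18 (SE 0.33, adjusted p = 0.00206 by edgeR). Its HSM libraries were at 3.63, 7.31 and 2.23 CPM, and its acetate libraries at 2.296, 1.71 and 1.53 CPM, so the ranges overlapped. The call was lost without HSM replicate 2 (−0.63, adjusted p = 0.0991 by edgeR), the library with the lowest TMM factor (0.454) and the largest share of the 100 most abundant genes (76.3%), whose part in the result was not tested. It was also lost when scaled by library size alone (−0.08, where the median of all genes was 0.99).

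After 15 min of HL on day 1, 0 of the 5 genes were called between acetate and HSM by edgeR, where 33.8% of all genes were higher and 31.6% lower. None had an unadjusted p under 0.05, DESeq2 called 1 (HSF1, −0.31, adjusted p = 0.0116) and limma-voom 0. HSF1 was also called with RLE scaling (−0.31, adjusted p = 0.0221) and without HSM replicate 1 (−0.44, adjusted p = 0.00306 by edgeR). HSP70A was at 929 to 1510.3 CPM in HSM and at 1087 to 1315 CPM with acetate, and HSP90A at 776 to 1260.4 CPM and 1009.8 to 1123 CPM. After 60 min of HL on day 1, 3 genes were higher with acetate (22.9% of all genes), HSP70A by 0.72, HSP90A by 0.57 and HSP22C by 1.22, and HSF1 was lower (27.2%), by −0.48 (SE 0.12, adjusted p = 0.00115 by edgeR, and −0.29 with an adjusted p of 0.3 when scaled by library size alone).

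After 15 min of HL on day 2, HSP22C was higher with acetate (37.8% of all genes), by 1.61, at 13.23, 14.9 and 18.5 CPM against 3.93, 5.80 and 5.61 CPM. HSF1, at 20.3, 18.2 and 18.8 CPM against 32.8, 33.0 and 25.3 CPM, was lower (33.1%), by −0.67 (SE 0.12), although scaling by library size alone put it at 0.055, where the median of all genes was 0.87. Neither pair of ranges overlapped. HSP70A (0.28, adjusted p = 0.124) and HSP90A (0.15, adjusted p = 0.404 by edgeR) were not called with TMM scaling. Both were called when scaled by library size alone (1.01 and 0.87).

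After 60 min of HL on day 2 all 5 were higher with acetate (36% of all genes), by 0.87 for HSF1, 2.59 for HSP70A, 2.05 for HSP90A, 6.69 for HSP22A (SE 0.72, adjusted p = 2.34e-10) and 5.2 for HSP22C (SE 0.30, adjusted p = 1.48e-17 by edgeR). In HSM at this time HSF1 was at 24.9, 25.7 and 24.4 CPM, HSP70A at 747, 842 and 799 CPM and HSP90A at 1114, 1065 and 1113 CPM. HSP22A was at 4.33, 2.92 and 2.70 CPM and HSP22C at 8.75, 8.61 and 5.88 CPM. The HSP22A value was 4.82 without acetate replicate 3. No library of HSM reached the acetate range in any of the 5 genes. The HSF1 call was lost with library size as the only scaling (0.44, adjusted p = 0.0611 by edgeR), where the value relative to the median of all genes was 0.90.

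**Figure D3:**
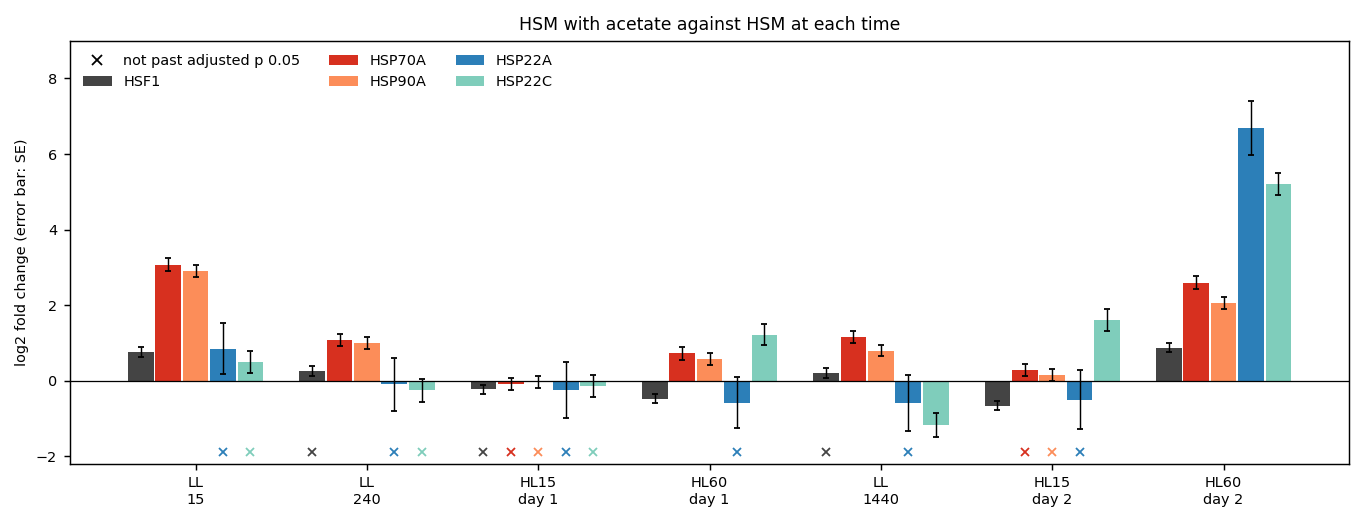
Log2 fold change of acetate against HSM for the 5 genes at the 7 sampling times, with bars for the fitted value, error bars for its SE and crosses at the foot for values not past an adjusted p of 0.05. HSP70A and HSP90A differ most between media at the first (3.07 and 2.90) and last (2.59 and 2.05) sampling, and HSP22A is called at the last alone (6.69).

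Over the 7 times, the average acetate response was 0.10 for HSF1 (SE 0.05, adjusted p = 0.0404 by edgeR), 1.26 for HSP70A, 1.06 for HSP90A, 0.79 for HSP22A and 0.99 for HSP22C. All 5 were higher, as were 40.8% of all genes. The HSF1 average combined 2 times at which it was higher with acetate, 2 at which it was lower and 3 not called, and it lost its call in 21 of the 42 fits without a single library. The HSP22A average was not past the threshold by limma-voom (0.55, adjusted p = 0.216).

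Between 15 and 60 min of HL, called changes of HSF1 and HSP70A were falls in 3 of 4 exposures and rises in acetate on day 2. In HSM on day 1, 3 of the 5 genes fell (30.7% of all genes), HSF1 by −0.61, HSP70A by −1.52 and HSP90A by −0.74, with HSF1 at 0.039 and HSP90A at −0.038 (adjusted p = 0.873 by edgeR) when scaled by library size alone, where the median of all genes was 0.70. With acetate on day 1, 2 fell (31.3%), HSF1 by −0.86 and HSP70A by −0.70, and HSP22C rose (29.9%), by 1.12. In HSM on day 2, 2 fell (33.8%), HSP70A by −0.90 and HSF1 by −0.28 (SE 0.12, adjusted p = 0.0385 by edgeR), with values of 0.13 and 0.75 when scaled by library size alone, where the median of all genes was 1.14. The HSF1 fall was lost without replicate 1 of 15 min (−0.22) or without any 1 of the 60 min libraries (−0.30 to −0.26). It was also lost without the filter and in a fit of only these 6 libraries (adjusted p up to 0.0735 by edgeR). HSP22C (0.61) was called without replicate 3 of 60 min (0.77, adjusted p = 0.0279), in the fit of only these 6 libraries (0.59, adjusted p = 0.0183) and when scaled by library size alone (1.66, all by edgeR). With acetate on day 2 all 5 rose (36.1%), HSF1 by 1.26, HSP70A by 1.41, HSP90A by 1.81, HSP22A by 7.42 and HSP22C by 4.2. The HSP22A value was 5.55 without replicate 3 at 60 min.

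In LL the early excess of the chaperones with acetate was smaller at 240 min, where both were still higher than in HSM. From 15 to 240 min with acetate, 4 of the 5 genes fell (34.9% of all genes), HSF1 by −0.65, HSP70A by −2.59 (SE 0.17), HSP90A by −2.5 (SE 0.16) and HSP22C by −1.33 (SE 0.29), with HSF1 at 0.28 and HSP22C at −0.40 (adjusted p = 0.124 by edgeR) when scaled by library size alone, where the median of all genes was 0.90. HSP70A went from 1393 to 1530.5 CPM down to 231 to 269 CPM, and HSP90A from 1224 to 1343 CPM down to 215 to 241 CPM, without overlap. HSP22A (−1.29, adjusted p = 0.0868 by edgeR) was called in a fit of only these 6 libraries (−1.20, adjusted p = 0.000399).

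In HSM, HSP70A and HSP90A also fell from 15 to 240 min, by −0.59 (adjusted p = 0.034) and −0.61 (adjusted p = 0.02 by edgeR), 2 of the 5 genes against 2.06% of all genes. These calls were fragile: leaving out a library ended that of HSP70A in 6 of 6 fits (−0.66 to −0.45) and that of HSP90A in 5 of 6 (−0.60 to −0.52), all but the fit without replicate 2 of 240 min. From 240 to 1440 min 2 genes rose in HSM (12.6%), HSP70A by 0.61 and HSP90A by 0.58, and neither was called in a fit of only those 6 libraries (adjusted p = 0.0702 and 0.0745 by edgeR). Scaled by library size alone, neither the falls (−0.20 and −0.21) nor the rises (0.16 and 0.17) were called, and the HSP70A rise was lost without HSM replicate 3 of 240 min (0.51, adjusted p = 0.0576 by edgeR). With acetate 2 rose (23.3%), HSP70A by 0.69 and HSP90A by 0.37 (adjusted p = 0.0461 by edgeR), the latter lost in 6 of 6 fits without a library (0.32 to 0.41).

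Whether the HL response itself differed with acetate was tested as an interaction. After 15 min the rise of the cytosolic chaperones was smaller with acetate on both days, and after 60 min on day 2 it was larger with TMM scaling. On day 1 at 15 min, 3 of the 5 genes had a smaller response (15% of all genes), HSF1 by −0.49 (adjusted p = 0.0318), HSP70A by −1.17 (adjusted p = 0.000238) and HSP90A by −1.04 (adjusted p = 0.000538 by edgeR). The LL levels from which these responses start were higher with acetate for both chaperones, and their HL levels were not called different. The HSF1 difference was lost in 5 of 12 fits (−0.48 to −0.39), namely without HSM LL replicate 2 or 3, acetate LL replicate 1, HSM HL replicate 2 or acetate HL replicate 2, and when scaled by library size alone (−0.30, adjusted p = 0.54 by edgeR). At 60 min on day 1 the response was smaller for HSF1 (19.4%), by −0.74, and larger for HSP22C (15.7%), by 1.47. HSP90A (−0.43) was called there without HSM HL replicate 1 (−0.59, adjusted p = 0.033 by edgeR).

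On day 2 at 15 min, 3 genes had a smaller response with acetate (16.1% of all genes), HSF1 by −0.86, HSP70A by −0.87 and HSP90A by −0.65, and HSP22C a larger one (19.8%), by 2.79 (SE 0.43). The HSP90A difference was lost without HSM HL replicate 1 (−0.57, adjusted p = 0.0576 by edgeR). As on day 1, the LL levels of both chaperones were higher with acetate (1.15 for HSP70A and 0.80 for HSP90A). Their levels after 15 min of HL were not called different with TMM scaling (0.28 and 0.15). At 60 min all 5 had a larger response (31.9%), by 0.68 for HSF1, 1.44 for HSP70A, 1.25 for HSP90A, 7.29 for HSP22A (SE 1.00, adjusted p = 1.16e-07) and 6.38 for HSP22C (SE 0.43, adjusted p = 1.5e-14 by edgeR), although scaling by library size alone put HSF1, HSP70A and HSP90A at −0.71, −0.026 and −0.17, where the median of all genes was −1.39. Relative to that median they were at 0.68, 1.36 and 1.22. The HSP22A difference was 5.42 without acetate HL replicate 3.

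The HL response of day 2 was also tested against that of day 1. In HSM, 0 of the 5 genes differed by edgeR at 15 min, where 4.41% of all genes had a larger and 6.8% a smaller response on day 2, or at 60 min, where the shares were 2.4% and 3.67%. DESeq2 and limma-voom called 0 as well. The HSP22C difference at 60 min was 1.32 (adjusted p = 0.0385) without LL replicate 2 of 1440 min, and the genes with an unadjusted p under 0.05 were 1 (HSP90A, −0.46) at 15 min and 0 at 60 min. With acetate at 15 min the response was larger on day 2 for HSP22C (18.1%), by 2.66 (SE 0.42), and smaller for HSF1 (18.3%), by −0.72 (SE 0.17). At 60 min it was larger for all 5 (34.5%), by 1.41 for HSF1, 2.02 for HSP70A, 1.88 for HSP90A, 7.48 for HSP22A (5.61 without HL replicate 3 of day 2) and 5.74 for HSP22C. The HSF1 value was 0.57 (adjusted p = 0.102 by edgeR) when scaled by library size alone.

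The 3 libraries of acetate after 60 min of HL on day 2 differed far more in HSP22A than in the other 4 genes. The highest was 101 times the lowest for HSP22A, 2.78 times for HSP22C, 1.53 times for HSP90A, 1.497 times for HSP70A and 1.39 times for HSF1. On the scale of log2(CPM + 1), the HSP22A range of 6.496 was the widest of the 13886 genes tested in this condition, where the median range was 0.36, and the range of 1.47 for HSP22C was reached by 0.778% of genes. Replicate 2, the lowest in all 5 genes, had a TMM factor of 1.16, against 0.867 and 0.860 in replicates 1 and 3, and 40.9% of its counts in the 100 most abundant genes, against 48.0% and 47.0%. The part of these values in the result was not tested.

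The gene that follows HSP22A in the RefSeq annotation, Cre07.g318850, to which the tables at hand give no name, varied with it. It was at 104, 8.19 and 393 CPM in the same 3 libraries and at 0.228 to 4.06 CPM in the other 39. Whether the pair shares sequence, and how reads that fit both would have been counted, was not examined, and the level of each is uncertain to that extent. HSP22A's neighbour on the other side, tested as well, had a correlation of −0.226 with it over the 14 condition means.

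**Figure D4:**
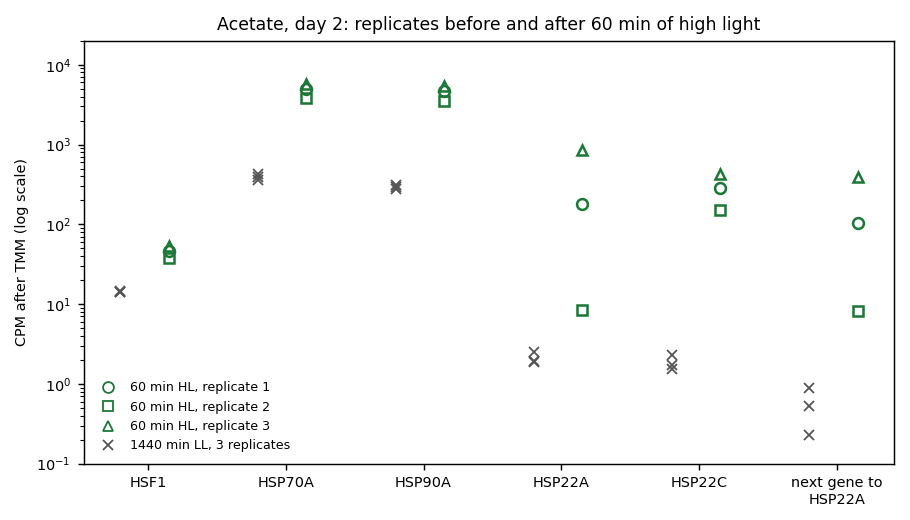
Level in CPM after TMM scaling (log axis) of the 5 genes and of the gene next to HSP22A in acetate on day 2, with crosses for the 3 LL libraries at 1440 min and open symbols for replicates 1, 2 and 3 after 60 min of HL. Replicate 2 is the lowest in every gene, at 8.399 CPM for HSP22A, where replicate 3 is at 847 CPM.

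Likeness of the patterns was described by Pearson's r of the condition means of log2(CPM + 1) over the 14 conditions, which share libraries and scaling. HSP70A and HSP90A were the most alike of the 10 pairs, with an r of 0.979, and HSP70A was the gene most like HSP90A among the 8669 genes with a mean of at least 5 CPM. In the other direction HSP90A was 3rd in likeness to HSP70A. An r above 0.9 was reached by 224 genes with HSP70A and by 179 with HSP90A, so such values were not particular to this pair. HSF1 had an r of 0.869 with HSP70A and 0.885 with HSP90A. Other genes were more like it: in likeness to HSF1, HSP90A was 49th and HSP70A 74th of the 8669 genes. HSF1 itself was 404th in likeness to HSP70A and 243rd in likeness to HSP90A. HSP22A and HSP22C had an r of 0.903 but a Spearman's rho of 0.323, and HSP22A and HSP70A had 0.505 and 0.002. Over the 13 conditions other than acetate after 60 min of HL on day 2, a choice made after seeing the data, these r values were 0.120 and −0.057, and that of HSP70A and HSP90A was 0.971. The gene most like HSP22A was its neighbour Cre07.g318850 (r = 0.993, rho = 0.930), with an r of 0.932 over the 13 conditions. Cre03.g152750, also without a name in these tables, was second in likeness for both HSP22A (r = 0.943, rho = 0.125) and HSP22C (r = 0.952, rho = 0.653), with 0.292 and 0.639 over the 13 conditions. Both of these genes were among the genes compared only through the condition left out, since their means over the other 39 libraries were 1.15 and 1.06 CPM.

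The study's list of transcription factors holds another HSF-family gene, Cre09.g387150, described here after its values were seen. It was higher in all 8 HL comparisons, by 0.45 to 2.58, and ranged from 9.05 ± 0.456 CPM in HSM at 240 min of LL to 106 ± 32.3 CPM (SD, n = 3) in acetate after 60 min of HL on day 2, the same lowest and highest conditions as HSF1. In that highest condition it was at 109, 72.5 and 137 CPM, again lowest in replicate 2. After 15 min of HL on day 2 with acetate it was at 105 ± 3.05 CPM, where HSF1 was at 19.1 ± 1.06 CPM, and from 15 to 60 min its change was 0.01, where HSF1 rose by 1.26.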

How the data were processed

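RNA of 42 libraries (14 conditions, 3 replicates) was counted per gene. Adapter trimming by the authors used BBduk, alignment used STAR (version 2.5.3 per the submitters' processing notes) to the Phytozome transcriptome of assembly version 5, and the deposited values are raw counts from HTSeq-count with reverse strand. The table holds 0 columns without a sample and 0 lines without a gene. No replicate pair agreed within sampling noise (42 pairs, chi-square per degree of freedom 6.22 to 149).

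From the deposited counts, the 13886 genes that reached 1 CPM in 9 or more libraries were kept. TMM factors were computed, and edgeR 4.0.16 in R 4.3.3 (glmQLFit, then glmQLFTest) was run on a model with a coefficient per condition, with Benjamini-Hochberg adjustment over all of them and a threshold of 0.05. The fit gives no standard error, so the SE was derived from each test as the absolute log2 fold change divided by the square root of its F statistic. The 95% interval is the log2 fold change with 1.96 SE to each side, a normal approximation. Levels are TMM-scaled CPM, given with the SD of the 3 libraries. Scripts were tested on simulated data. The simulated counts had the same composition in all libraries apart from a set of changed genes in 1 condition. Scaling between libraries of unlike composition was therefore not tested. Alternatives were RLE and library size scaling, no filter, DESeq2 1.42.0, limma-voom (limma 3.58.1), fits of only the libraries compared, the replicate number, or a number that ends the bracketed part of each title (taken as a culture by assumption), as a block, and fits without each library. For likeness they were Spearman's rho, all 42 libraries, library size scaling and, added after seeing the data, 13 conditions. Figures were drawn with matplotlib 3.10.9 in Python 3.11.15.

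The genes and lists were chosen with earlier results of these data known. Named genes are the 5 members, genes most alike in pattern and LHCSR3.1 as a check. Among the genes alike in pattern, identifiers without a name were limited to 2, so those most like HSF1, HSP70A and HSP22C are not given. The HSF-family gene Cre09.g387150 was added after its values were seen. Lists of other heat-shock genes, co-chaperones and nearest paralogues had been planned by annotated names or protein identity. The RefSeq table of assembly version 5.5 (17738 identifiers matched) gives 0 symbols, so these lists were not analysed here, and it is another build, so no coordinates are given. It was used for the order of neighbouring genes.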

Additional observations from a re-analysis of the deposited data

Results flagged for a closer look

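Of 40 differences between HL responses tested for the 5 genes, 21 were past the threshold (adjusted p under 0.05, the quasi-likelihood test of edgeR, adjusted after Benjamini and Hochberg), 14 of 20 between media and 7 of 20 between days. Over all genes tested, 40.3% of the differences between media and 29.2% of those between days were past it. As log2 differences, acetate minus HSM, the HL response at 15 min of day 1 differed by −0.49 for HSF1, −1.17 for HSP70A and −1.04 for HSP90A. At 60 min of day 1 it differed by −0.74 for HSF1 and 1.47 for HSP22C. At 15 min of day 2 the differences were −0.86 for HSF1, −0.87 for HSP70A, −0.65 for HSP90A and 2.79 for HSP22C. At 60 min of day 2 they were, with TMM scaling, 0.68 for HSF1, 1.44 for HSP70A, 1.25 for HSP90A, 7.29 for HSP22A and 6.38 for HSP22C. HSF1, HSP70A and HSP90A thus had negative called differences at 15 min of both days and positive ones at 60 min of day 2.

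Between days, all called differences were in acetate. As day 2 minus day 1, the response at 15 min differed by −0.72 for HSF1 and 2.66 for HSP22C, and that at 60 min by 1.41 for HSF1, 2.02 for HSP70A, 1.88 for HSP90A, 7.48 for HSP22A and 5.74 for HSP22C. All 5 values at 60 min rest on the libraries of acetate after 60 min of HL on day 2, in which replicate 2 was the lowest for each gene. The 5 differences between media at 60 min of day 2 rest on the same libraries, so the called differences are not independent. With groups of 3 libraries, single libraries were not tested as outliers.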

How the results depend on the processing

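Under RLE, DESeq2, limma-voom, no filter and the replicate or culture block, 1 to 3 of the 165 values changed side of the threshold, and in fits of only the libraries compared 11 of 155. Leaving out a library changed 61 of 1560. Scaling by library size alone moved most: 19 others changed side and 33 turned, 13 of them called in at least 1 of both fits. Those 13 were HSF1 −0.039 (15 min HL, acetate day 2), 0.055 (acetate against HSM, 15 min HL day 2), 0.039 and 0.75 (60 against 15 min HL, HSM, day 1 and day 2) and 0.28 (240 against 15 min LL, acetate). HSP70A was at 0.13 and HSP90A at 0.94 for 60 against 15 min HL in HSM on day 2. Against HSM after 15 min HL on day 1, HSP70A, HSP90A and HSP22C were at 0.57, 0.64 and 0.53 (median of all genes 0.68). The interaction at 60 min of day 2 was −0.71, −0.026 and −0.17 for HSF1, HSP70A and HSP90A (median −1.39). A further 20 values, past the threshold in neither fit, also changed sign. For HSP22A these were 0.13 (60 min HL, acetate day 1), acetate values of 0.34, 0.42, 0.42 and 0.24 (240 min LL, 15 min HL day 1, 1440 min LL, 15 min HL day 2), LL values in HSM of 0.044 and −0.17, interactions at 15 min of 0.075 and −0.17 (day 1, day 2) and day differences of 0.065 (HSM, 60 min) and −0.18 (acetate, 15 min). For HSP22C they were 0.18 (acetate, 240 min LL), 0.45 (60 against 15 min HL, HSM day 1), −0.22 (1440 against 240 min LL, HSM) and 0.055 (day difference, HSM, 15 min). For HSF1 they were 0.40 (acetate, 15 min HL day 1), 0.26 and −0.30 (LL intervals, HSM) and 0.29 (day difference, HSM, 60 min), and for HSP90A 0.070 (60 against 15 min HL, acetate day 1).

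All other sign changes were likewise of values past the threshold in neither fit. For 60 min HL in HSM, HSP22C on day 1 was at −0.039 (DESeq2), −0.040 (RLE) and −0.0080 (only the libraries compared), and HSP22A on day 2 at −0.074, −0.049 and −0.024. The day difference in HSM was 0.015 (RLE), 0.20 (limma-voom) and 0.0078 (only the libraries compared) for HSP22C at 15 min, and 0.0043 (culture block), 0.0079 (no filter) and 0.0044 (only the libraries compared) for HSF1 at 60 min. The culture block put HSP22A at 0.083 (15 min HL, acetate day 2) and 0.057 (acetate, 240 min LL) and HSF1 at −0.024 (1440 against 240 min LL, acetate; −0.0040 without the filter). HSP90A for acetate at 15 min HL of day 1 was at 0.024 without the filter, and the HSP22A interaction at 15 min of day 2 at −0.058 with only the libraries compared.

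Leaving out a library turned 34 values of 17 results. For HSF1 the ranges were −0.12 to 0.12 (day difference, HSM, 60 min), −0.058 to 0.19 and −0.053 to 0.13 (1440 against 240 min LL, HSM and acetate). For HSP22A they were −0.29 to 0.14 (15 min HL, acetate day 2), −0.022 to 0.35 (60 against 15 min HL, HSM day 2), −0.20 to 0.17 (60 min HL, HSM day 2), −0.28 to 0.043 (60 min HL, acetate day 1), −0.11 to 0.32 (interaction, 15 min day 2), −0.13 to 0.30 (day difference, HSM, 15 min) and −0.25 to 0.078 (acetate, 240 min LL). For HSP22C they were −0.043 to 0.76 (15 min HL, HSM day 2), −0.12 to 0.15 (60 min HL, HSM day 1), −0.25 to 0.25 (interaction, 15 min day 1), −0.36 to 0.45 (day difference, HSM, 15 min) and −0.20 to 0.60 (1440 against 240 min LL, HSM). For acetate at 15 min HL of day 1 they were −0.31 to 0.043 (HSP70A) and −0.24 to 0.10 (HSP90A).

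Counts of genes called changed by over 1.5 times as follows, with the cause not tested. With library size only they were 3 for acetate at 15 min HL of day 1 (0 in the main fit, 1 with RLE or DESeq2, 0 to 1 on leaving out a library), 1 for 60 against 15 min HL in HSM on day 1 (3), 0 for both LL intervals in HSM (2 each), 2 for 240 against 15 min LL with acetate (4), 3 for the interaction at 60 min of day 2 (5) and 1 for the day difference at 60 min in HSM (0, and 0 to 1 on leaving out a library, with HSP22C at 1.32 without HSM LL replicate 2 of 1440 min). In fits of only the libraries compared they were 5 for acetate at 15 min LL (3) and 0 for 1440 against 240 min LL in HSM (2, and 1 to 2 on leaving out a library). Without the filter they were 1 for 60 against 15 min HL in HSM on day 2 and 1 for 1440 against 240 min LL with acetate (2 each, and 1 to 2 and 1 to 1 on leaving out a library). For 240 against 15 min LL in HSM, leaving out a library gave 0 to 1. By limma-voom the averages of HSP22A were 0.62 in HL and 0.55 with acetate. The HSF1 acetate average was 0.067 to 0.13 without a library.

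Deviations of libraries with the same replicate number correlated at a median of 0.022 (−0.312 to 0.514). For the number taken as a culture the median was 0.03 (−0.426 to 0.521). The labels do not say which libraries came from the same culture, so these values cannot decide whether libraries were paired. With the replicate block, as with the culture block, 1 gene was called for 1440 against 240 min LL with acetate (HSP90A lost, adjusted p = 0.0528 by edgeR), and the replicate block changed no other call. The culture block also gained HSF1 for acetate at 240 min LL (0.27, adjusted p = 0.0426 by edgeR). Calls gained elsewhere and not given above were HSP22A at −0.48 (15 min HL, acetate day 1) and −0.53 (acetate, 60 min HL day 1) and HSP22C at −0.57 (1440 against 240 min LL, acetate) in fits of only the libraries compared, and, with library size only, HSP22C at 0.56 (60 min HL, HSM day 1) and 1.26 (day difference, HSM, 60 min), and HSP70A at 1.01 and HSP90A at 0.87 (acetate, 15 min HL day 2). Outside acetate after 60 min of HL on day 2, HSP22A had 36 to 142 and HSP22C 35 to 430 counts a library, which limits small differences.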
